A study of Mus musculus with 8 samples.

Results

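The transcripts described here encode 10 secreted growth factors and cytokines that can support the repair of myelin: Igf1, Pdgfa, Pdgfb, Vegfa, Vegfb, Hgf, Osm, Lif, Inhba and Bdnf. They were chosen by name and make up 10 of the 46983 genes in the deposited table, and each symbol matched a single row. The 8 RNA-seq libraries were made from microglia, which are macrophages that live in the brain, taken from the corpus callosum of mice on a mixed FvB and C57BL6 background. Every mouse carried Cx3cr1-CreER, a tamoxifen-inducible Cre recombinase driven by a gene of microglia and related macrophages, received tamoxifen at 8 weeks of age and then 0.2% cuprizone in the food for 6 weeks. Cuprizone is a copper chelator that kills oligodendrocytes and so strips myelin. Mice called Qk-KO carried loxP sites on both alleles of Qk, which encodes the RNA-binding protein quaking, and mice called WT carried them on 1 allele, so that the WT mice were exposed to Cre and had a target for it too.

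The sample names give 4 Qk-KO and 4 WT libraries, numbered 1 to 4 in each group. The genotype given in a separate field goes against the name in 4 of the 8 libraries: named Qk-KO 1 and 3 are WT there, and named WT 2 and 3 are Qk-KO. Libraries are therefore called by their names, and no difference is assigned to a genotype. The targeted gene did not separate the names. Qk was 15.59, 15.40, 15.69 and 15.29 in named Qk-KO 1 to 4, against 15.50, 15.38, 15.41 and 15.37 in named WT 1 to 4, on the regularized log2 scale that is explained below (limma, adjusted p = 0.819), and this value sums all exons, including any outside the deleted part. Nothing in the labels ties the libraries to separate mice. The spread that every p-value rests on may thus be partly technical.

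After myelin is lost, oligodendrocyte precursor cells divide, move into the lesion and mature into cells that form new sheaths. Microglia clear the debris of the old myelin and release factors that act on these steps. IGF-1 promotes survival and maturation of oligodendrocytes, PDGF-A is the main mitogen of their precursors, and LIF and oncostatin M are cytokines of the interleukin-6 family that signal through the shared receptor subunit gp130.

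Quaking binds RNA at the element ACTAAC or ACTAAT, written here as DNA, usually with a second short half-site nearby. The 3′ untranslated regions (UTRs) of the members were searched for both forms on the transcript strand, in the annotated coding transcript with the longest 3′ UTR (GENCODE M21, build GRCm38), because quaking is the protein the study targeted. They hold 9 elements in 5 of the 10 genes: 4 in Igf1, 2 in Inhba and 1 each in Pdgfa, Vegfa and Osm. Of all 15543 genes tested that have a 3′ UTR, 33.6% had at least 1 element. Igf1 has the longest 3′ UTR of the 10. Among the 486 genes tested whose 3′ UTR was within 20% of its 6308 bases, the median was 2 elements, 83.7% had at least 1 and 16.7% had 4 or more. Single elements are common, since 31.9%, 43.0% and 27.9% of 3′ UTRs close in length to those of Pdgfa, Vegfa and Osm had at least 1. Of those close in length to that of Inhba, 72.0% had at least 1 and 40.1% had 2 or more. Each element of Igf1, Inhba and Osm had at least 1 other half-site within 20 bases, while those of Pdgfa and Vegfa had 0. A match describes these letters and does not show that quaking binds there. The sites of the 3 genes with the values described most closely below are shown with 12 bases on each side, the element in capitals.
Igf1 site 1, chr10:87932206-87932235, plus strand: tgtaaataacccACTAACaatgtagctcca
Igf1 site 2, chr10:87932289-87932318, plus strand: tgaagctgtgcaACTAATtagtgacaagct
Igf1 site 3, chr10:87933527-87933556, plus strand: aaaattaattgtACTAATtaatcataataa
Igf1 site 4, chr10:87936903-87936932, plus strand: ttataaaatgtaACTAACtgaatcattatc
Vegfa site, chr17:46017837-46017866, minus strand: accattgaaaccACTAATtctgtccccagg
Osm site, chr11:4240896-4240925, plus strand: tggagggacatgACTAATttattgttttat

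These libraries held much Osm, Pdgfb, Vegfa and Igf1 RNA and almost no Inhba or Bdnf RNA. Levels between genes were compared as CPM, the authors' mean signal scaled to a total of 1000000 over all genes, per kilobase of annotated exon. Osm was highest at 140.2 CPM per kb, followed by Pdgfb at 60.5, Vegfa at 22.0, Igf1 at 18.7, Vegfb at 15.01 and Pdgfa at 11.3 CPM per kb. Hgf was at 1.98, Lif at 0.237, Bdnf at 0.0160 and Inhba at 0.00916 CPM per kb. These are means over the libraries and carry no error of their own, so the close neighbours Vegfa, Igf1, Vegfb and Pdgfa are not ranked further. Osm and Lif are neighbours on chromosome 11, with 16530 bases between the end of Osm (4236420 to 4241026) and the start of Lif (4257557 to 4272514), both on the plus strand. Their levels were nonetheless the first and the eighth of the 10.

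**Figure D1:**
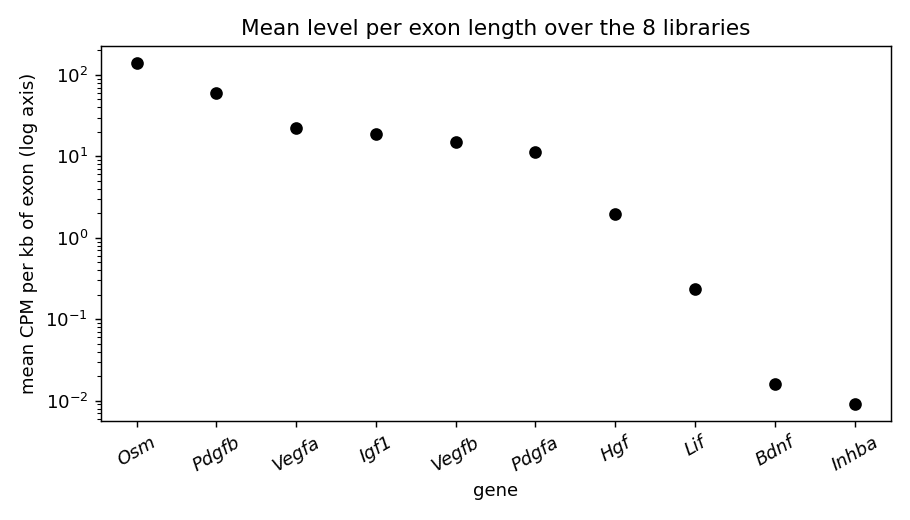
Mean level of each growth factor over the 8 libraries, in CPM per kb of exon on a log axis, 1 point per gene. Osm is highest at 140.2 and Inhba lowest at 0.00916 CPM per kb.

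None of the 10 growth factors was called different between the libraries named Qk-KO and those named WT. The values of the named groups overlapped for all 10, where 5.73% of the 22546 genes tested did not overlap. In limma 3.58.1, a linear model fitted to all genes, the threshold for a call was an adjusted p (Benjamini-Hochberg) below 0.05. It called 0 of the 10, with 0 at an unadjusted p under 0.05, and 1 of all 22546 genes (0.00444%), with 1863 at an unadjusted p under 0.05 (8.26%). The authors' deposited table called 0 of the 8 members to which it gives an adjusted p, against 173 of 14150 genes overall (1.22%). At an unadjusted p under 0.05 it had 0 of 10 members, against 1773 of 27321 genes (6.49%). The smallest adjusted p of a member in the authors' deposited table was 0.690, for Vegfa. The median difference of the members was -0.07 on the log2 scale, against -0.0044 over all genes tested. Fitted without both libraries numbered 4, an alternative chosen after the values were seen, limma again called 0 of the 10.

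**Figure D2:**
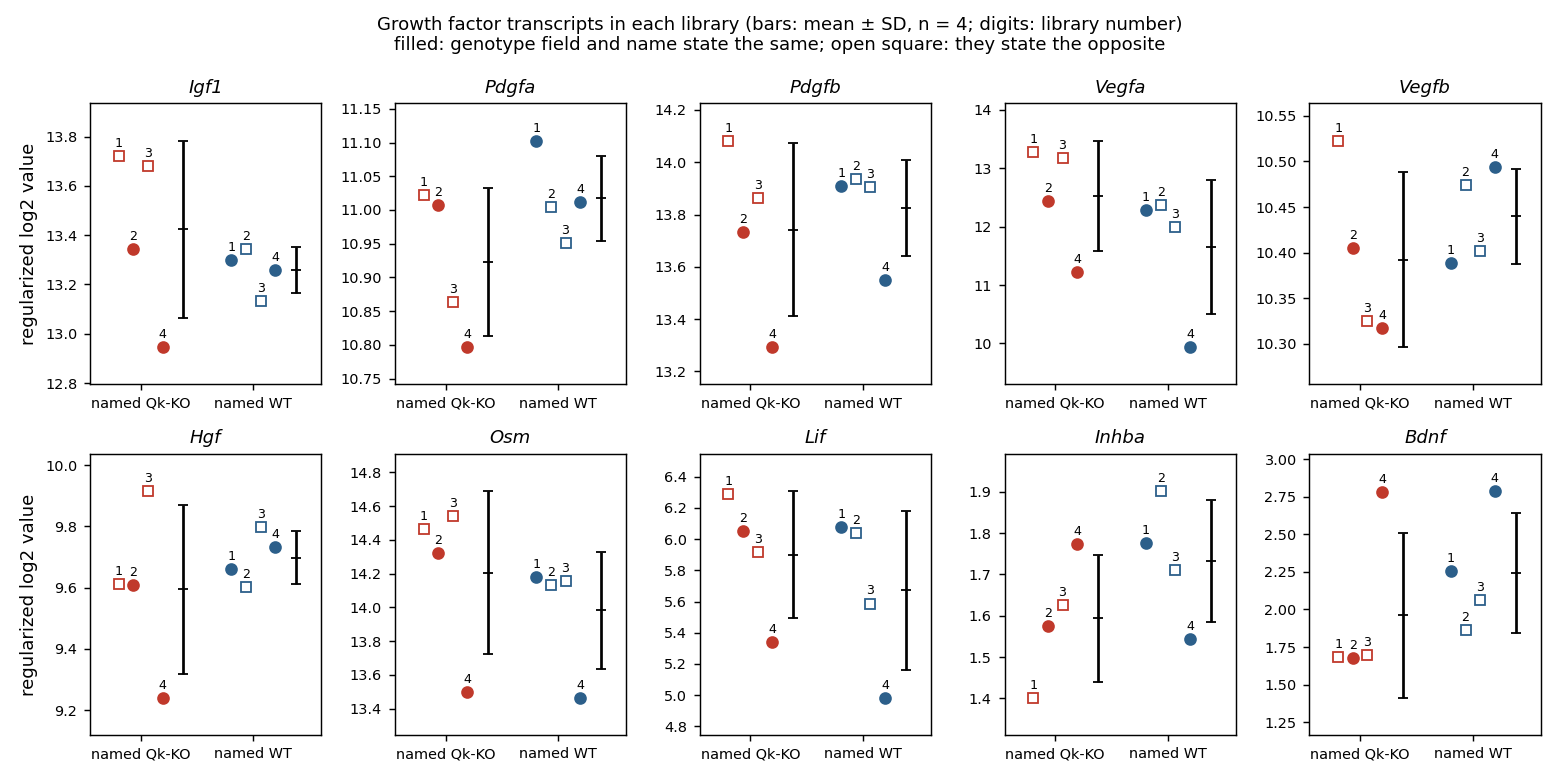
Regularized log2 value of each growth factor in each library, named Qk-KO left of named WT, with the mean and SD of 4 libraries beside each group. Digits are library numbers and open squares mark libraries whose genotype field states the opposite of the name. All 10 pairs of groups overlap, and both libraries numbered 4 are low for Osm, Pdgfb, Vegfa and Lif.

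Igf1 (ENSMUSG00000020053.18, chromosome 10, 87858265 to 87937042, plus strand) encodes insulin-like growth factor 1. Values below are the authors' regularized log2 values, which are scaled for depth and drawn towards the gene's mean where reads are few. Igf1 was 13.72, 13.35, 13.68 and 12.95 in named Qk-KO 1 to 4, against 13.30, 13.35, 13.13 and 13.26 in named WT 1 to 4. The named Qk-KO libraries held both the highest values, in 1 and 3, and the lowest, in 4, while the named WT libraries lay close together between them. The means were 13.42 ± 0.36 in named Qk-KO and 13.26 ± 0.09 in named WT (SD, n = 4 each). Named Qk-KO minus WT came to 0.16 ± 0.16 (SE; unadjusted 95% interval -0.19 to 0.52, or 0.875-fold to 1.44-fold; limma, adjusted p = 0.793). Without named Qk-KO 1 it was 0.066 (limma, adjusted p = 0.933), and without named Qk-KO 4 it was 0.32 (limma, adjusted p = 0.159).

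The libraries with the highest Igf1 are also those named Qk-KO whose genotype field states WT, and Qk itself was highest in the same 2 libraries. Grouped by the genotype field, Igf1 was 13.19 ± 0.19 in Qk-KO and 13.49 ± 0.24 in WT (SD, n = 4 each). Qk-KO minus WT by this field was -0.30 ± 0.13 (SE; 95% interval -0.60 to -0.0007; limma, unadjusted p = 0.0496, adjusted p = 0.9995). No gene was called by the genotype field (0 of 22546, 0%, with 602, or 2.67%, at an unadjusted p under 0.05 in limma). The sign of the Igf1 difference therefore depends on which label is used. In a model with both labels and their interaction, chosen after the values were seen, the interaction was -0.51 ± 0.19 (SE) for Igf1 (limma, unadjusted p = 0.0250, adjusted p = 0.404), and 5 of 22546 genes were called (0.0222%). At an unadjusted p under 0.05 there were 2514 genes (11.2%) for this interaction in limma. Pdgfb was also among them, at -0.65 ± 0.24 (SE; limma, unadjusted p = 0.0295, adjusted p = 0.412). The antisense gene Igf1os overlaps Igf1, and the labels do not say whether reads were counted by strand, so reads of both cannot be told apart.

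The platelet-derived growth factors Pdgfa and Pdgfb differed in how steady they were. Pdgfa, whose product drives division of oligodendrocyte precursors through the receptor encoded by Pdgfra, was 11.02, 11.01, 10.86 and 10.80 in named Qk-KO 1 to 4, against 11.10, 11.00, 10.95 and 11.01 in named WT 1 to 4. Named Qk-KO 3 and 4 lay below every named WT library and the other 2 lay among them. Pdgfa differed by -0.09 ± 0.07 (SE; 95% interval -0.25 to 0.06, or 0.843-fold to 1.04-fold; limma, adjusted p = 0.714), and -0.053 without named Qk-KO 4. Pdgfb, whose product recruits the pericytes of blood vessels through the receptor encoded by Pdgfrb, was 14.08, 13.73, 13.86 and 13.29 in named Qk-KO 1 to 4, against 13.91, 13.94, 13.91 and 13.55 in named WT 1 to 4. Named WT 1 to 3 were almost equal, and the lowest library of each group was its number 4. The difference was -0.08 ± 0.16 (SE; 95% interval -0.45 to 0.28; limma, adjusted p = 0.909). Antisense genes overlap both Pdgfa (6330403L08Rik) and Pdgfb (Gm41361).

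Vegfa, which encodes the vascular endothelial growth factor A of vessel growth, was the most variable member. It was 13.27, 12.44, 13.18 and 11.23 in named Qk-KO 1 to 4, against 12.28, 12.36, 11.99 and 9.94 in named WT 1 to 4. Between the highest library, named Qk-KO 1, and the lowest, named WT 4, it spanned 3.33 on the log2 scale, or 10.1-fold. Only 1.09% of the 13463 genes with a mean of at least 1 CPM spanned more, and the median gene spanned 0.44. Vegfa averaged 12.53 ± 0.95 in named Qk-KO and 11.65 ± 1.15 in named WT (SD, n = 4 each). The difference of 0.88 ± 0.69 (SE) was the largest of the 10 members and its 95% interval, -0.75 to 2.52, the widest, from 0.593-fold to 5.75-fold (limma, adjusted p = 0.746). The authors' deposited table gives 0.62 ± 0.48 (SE) for this gene. Without named WT 4 the difference was 0.32 (limma, adjusted p = 0.944), and without named Qk-KO 4 it was 1.32 (limma, adjusted p = 0.418).

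Vegfb, a related factor that binds the receptor encoded by Flt1, was in contrast the steadiest member. It was 10.52, 10.41, 10.32 and 10.32 in named Qk-KO 1 to 4, against 10.39, 10.47, 10.40 and 10.49 in named WT 1 to 4. The 8 libraries lay within 0.21 of each other, and 90.8% of genes of at least 1 CPM spanned more. Vegfb differed by -0.05 ± 0.06 (SE; 95% interval -0.19 to 0.10, or 0.875-fold to 1.07-fold; limma, adjusted p = 0.859), with -0.091 without named Qk-KO 1 and -0.022 without named Qk-KO 4. With libraries centred on the median of the genes tested, the difference was 0.029, so its sign depends on the scaling. Hgf, which encodes the ligand of the receptor MET, was 9.61, 9.61, 9.91 and 9.24 in named Qk-KO 1 to 4, against 9.66, 9.60, 9.80 and 9.73 in named WT 1 to 4. Both the highest and the lowest value were in named Qk-KO libraries. The difference was -0.10 ± 0.13 (SE; 95% interval -0.39 to 0.18; limma, adjusted p = 0.846). The annotated genes Gm43489 and Gm42975 overlap Hgf on the same strand, and their part in its values was not tested.

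**Figure D3:**
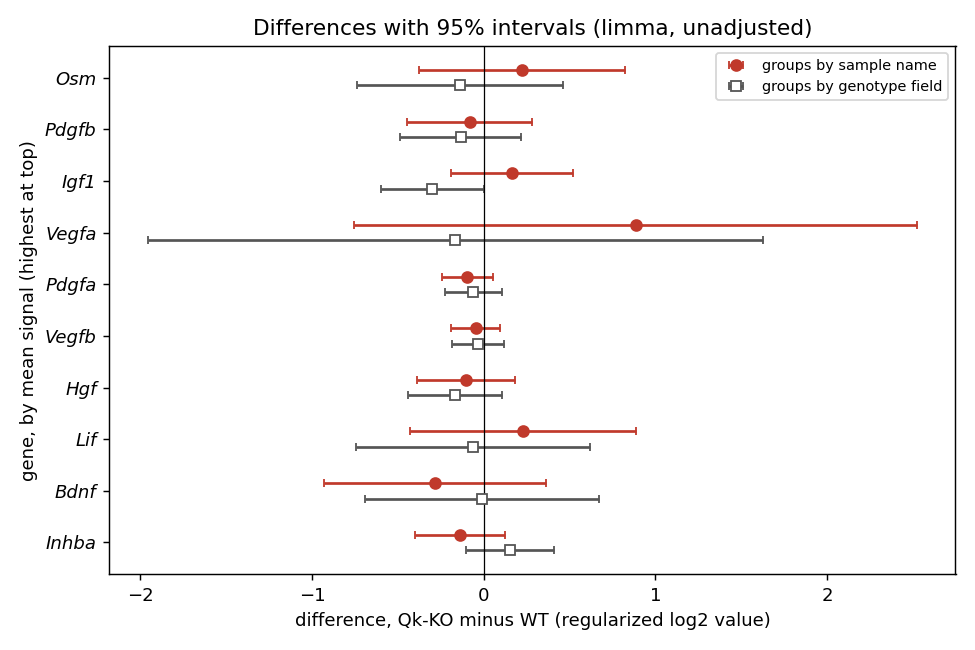
Difference of each growth factor, Qk-KO minus WT, on the regularized log2 scale, with its unadjusted 95% interval from limma. Circles group libraries by sample name and squares by genotype field, and genes run from the highest mean signal at the top to the lowest. All 10 intervals by name include 0, the widest being that of Vegfa at -0.75 to 2.52.

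The gp130 cytokines Osm and Lif were, like Vegfa and Pdgfb, lowest in both libraries numbered 4. Osm, made mainly by activated macrophages and neutrophils, was 14.46, 14.32, 14.54 and 13.50 in named Qk-KO 1 to 4, against 14.18, 14.13, 14.15 and 13.46 in named WT 1 to 4. In each group the library numbered 4 stood well below the other 3. Osm differed by 0.22 ± 0.26 (SE; 95% interval -0.38 to 0.82; limma, adjusted p = 0.835). Its difference was 0.050 without named WT 4 (limma, adjusted p = 0.985) and 0.46 without named Qk-KO 4 (limma, adjusted p = 0.260). Lif, a survival factor for oligodendrocytes, was 6.29, 6.05, 5.92 and 5.34 in named Qk-KO 1 to 4, against 6.08, 6.04, 5.59 and 4.98 in named WT 1 to 4. It was again lowest in number 4 of each group. At 1.03 CPM, Lif rested on a mean of 58.5 depth-scaled reads, and its difference was 0.23 ± 0.29 (SE; 95% interval -0.43 to 0.89; limma, adjusted p = 0.851).

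Without both libraries numbered 4, the remaining named groups no longer overlapped for Vegfa and Osm. Vegfa then lay between 12.44 and 13.27 in named Qk-KO and between 11.99 and 12.36 in named WT (3 libraries each). Osm lay between 14.32 and 14.54 in named Qk-KO and between 14.13 and 14.18 in named WT. Bdnf and Inhba also ceased to overlap, both lower in named Qk-KO, which made 4 of 10 members, where 19.6% of all genes tested had no overlap in these 6 libraries. Limma gave 0.75 ± 0.24 (SE; adjusted p = 0.280) for Vegfa and 0.29 ± 0.07 (SE; adjusted p = 0.144) for Osm. For Igf1 it gave 0.32 ± 0.11 (SE; adjusted p = 0.247). None passed the threshold, in a setting chosen after the values were seen.

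Both libraries numbered 4 were the lowest 2 of the 8 for 4 of the 10 members, Osm, Pdgfb, Vegfa and Lif, where 12.9% of the 13463 genes of at least 1 CPM had that order. Bdnf had both as its highest, an order found in 11.0% of those genes. Inhba and Bdnf, at 0.0585 and 0.0998 CPM, are not themselves among those genes. Both libraries numbered 4 also had the highest summed marker levels for 4 of 11 other cell types: astrocytes, oligodendrocytes, neurons, and mural cells and fibroblasts. Sums for single libraries, though given in CPM, are regularized log2 values turned back to the linear scale and divided by the same constant. They are therefore drawn towards each gene's mean. The summed level of 8 astrocyte markers was 512.7 CPM in named Qk-KO 4, against 87.2 to 210.1 CPM in named Qk-KO 1 to 3, and 552.2 CPM in named WT 4, against 213.2 to 391.0 CPM in named WT 1 to 3. The summed level of 8 oligodendrocyte markers was 264.3 CPM in named Qk-KO 4 and 310.3 CPM in named WT 4, and lay between 125.0 and 139.5 CPM in the other 6. For 9 mural and fibroblast markers the sums were 67.8 CPM in named Qk-KO 4 and 51.6 CPM in named WT 4, against 8.79 to 30.2 CPM in the other 6. No marker in these 3 lists was at 0 reads. The sums of 8 neuronal markers were 10.4 CPM in named Qk-KO 4 and 10.7 CPM in named WT 4, against 3.76 to 6.64 CPM in the other 6. Immune markers went the other way for 3 lists. Neutrophil markers, 9 in number, were lowest in the same 2 libraries, at 23.4 CPM in named Qk-KO 4 and 9.35 CPM in named WT 4, and highest in named WT 2 at 341.1 CPM, a library whose Osm value was close to those of named WT 1 and 3. Monocyte markers were likewise lowest there, at 14.0 CPM in named Qk-KO 4 and 13.1 CPM in named WT 4, as were T and NK cell markers, at 4.01 CPM in named Qk-KO 4 and 5.75 CPM in named WT 4. The sums of the other 4 lists did not set both libraries apart. Oligodendrocyte precursor markers summed to 133.9 CPM in named Qk-KO 4 and 235.7 CPM in named WT 4. That sum rests mostly on Cspg4, whose mean signal was 11329 depth-scaled reads, against at most 93.7 for each other marker of the list. The mean regularized log2 value of these markers did set both apart, at 7.43 in named Qk-KO 4 and 7.63 in named WT 4. It lay between 5.78 and 6.57 in the other 6. Endothelial markers were at 264.3 CPM in named Qk-KO 4 and 258.8 CPM in named WT 4. That sum rests mostly on Flt1, whose mean signal was 10467 depth-scaled reads, against at most 985.6 for each other marker of the list. The mean regularized log2 value of endothelial markers was 10.12 in named Qk-KO 4, against 8.89 to 9.10 in named Qk-KO 1 to 3. It was 9.81 in named WT 4, against 9.27 to 10.08 in named WT 1 to 3. Border-associated macrophage markers were at 184.3 CPM in named Qk-KO 4 and 112.9 CPM in named WT 4, and B cell markers at 147.7 CPM in named Qk-KO 4 and 176.0 CPM in named WT 4. In bulk RNA, fewer cells of a type and less RNA per cell cannot be told apart, and the part of these markers in the growth factor values was not tested.

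**Figure D4:**
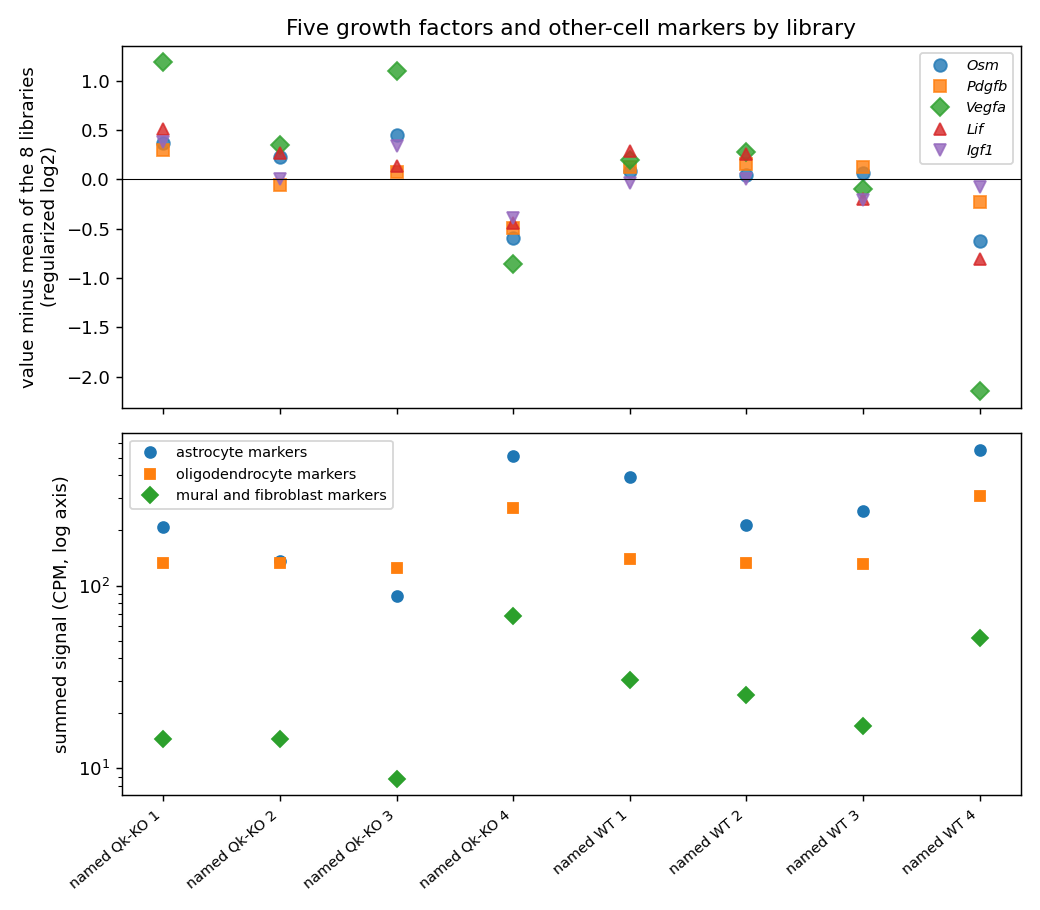
The upper panel shows 5 growth factors as the regularized log2 value minus the gene's mean over the 8 libraries, and the lower panel the summed signal of 3 marker lists in CPM on a log axis, with named Qk-KO libraries on the left. Vegfa, Osm, Pdgfb and Lif are lowest and the oligodendrocyte sums highest, at 264.3 and 310.3 CPM, in the libraries numbered 4.

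Inhba and Bdnf were close to the limit of detection. Inhba encodes the subunit of activin A, a factor that promotes maturation of oligodendrocytes, and Bdnf encodes brain-derived neurotrophic factor, which acts through the receptor encoded by Ntrk2. Their mean signal was 3.32 and 5.67 depth-scaled reads a library, and the authors' deposited table gives neither an adjusted p. Inhba was 1.40, 1.57, 1.63 and 1.77 in named Qk-KO 1 to 4, against 1.78, 1.90, 1.71 and 1.54 in named WT 1 to 4. Bdnf was 1.68, 1.68, 1.70 and 2.78 in named Qk-KO 1 to 4, against 2.26, 1.86, 2.06 and 2.79 in named WT 1 to 4, and so was highest in both libraries numbered 4. The differences were -0.14 ± 0.12 (SE; limma, adjusted p = 0.760) for Inhba and -0.28 ± 0.29 (SE; limma, adjusted p = 0.805) for Bdnf. Leaving out named Qk-KO 4 gave -0.56 for Bdnf and leaving out named WT 4 gave -0.10 (limma, adjusted p = 0.220 and 0.971), and Inhba at -0.074 without named Qk-KO 1. Both values rest on few reads and are drawn towards the mean, so differences in these genes are imprecise. Antisense genes overlap both.

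The genes whose values followed the 3 members with the highest mean signal most closely over the 8 libraries were sought among genes of at least 1 CPM, by Pearson's r across libraries, given as a description. For Osm they were Gm37347 (r = 0.995), Hcar2 (r = 0.994), which encodes the niacin receptor, and Dusp4 (r = 0.993), which encodes a phosphatase of MAP kinases. For Pdgfb they were Crtc2 (r = 0.998), a coactivator of CREB, Il1rn (r = 0.989), the antagonist of the interleukin-1 receptor, and Gem (r = 0.989), a small GTP-binding protein. For Igf1 they were Tmem189 (r = 0.970), Ell2 (r = 0.969), an elongation factor of RNA polymerase II, and Map2k4 (r = 0.969), a kinase of the JNK pathway. In the 6 libraries without those numbered 4, r for these 9 genes was 0.974, 0.985 and 0.961 with Osm, 0.990, 0.970 and 0.936 with Pdgfb, and 0.952, 0.975 and 0.958 with Igf1. The 9 genes were picked by r over all 8 libraries, which include these 6, so the second r is no separate check. The search ran over 13463 genes and 8 libraries, and number 4 was the lowest named Qk-KO library for all 3 members.

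The other genes of these pathways were described by 6 lists with 89 genes, of which 86 entered the limma fit. None was called in limma (0 of 86) or in the authors' deposited table (0 of the 73 with an adjusted p). At an unadjusted p under 0.05 there were 8 of 86 in limma, beside 8.26% of all genes tested. In the authors' deposited table there were 7 of 87, beside 6.49% of all 27321 genes with a p-value, so both counts were near the background. Of the 86, 36 differences were positive and 50 negative, beside 10997 positive and 11549 negative over all 22546 genes tested.

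All 18 receptor genes on the list entered the fit, with a median difference of -0.08. Nrp1, a coreceptor for VEGF-A, was 14.95 ± 0.13 in named Qk-KO and 14.94 ± 0.07 in named WT (SD, n = 4 each). Il6st, which encodes gp130, was 14.18 ± 0.22 in named Qk-KO and 14.18 ± 0.17 in named WT, a difference of -0.0038 (95% interval -0.27 to 0.26; limma, adjusted p = 0.996). Ntrk2 and Pdgfrb had the largest differences of the list, -1.08 ± 0.68 and -0.54 ± 0.65 (SE; limma, adjusted p = 0.697 and 0.840). Ntrk2 is known from astrocytes and Pdgfrb from mural cells. The astrocyte markers had a median difference of -0.87, and the mural and fibroblast markers had -0.52. Pdgfrb is itself on the mural and fibroblast list, so that median includes it. The part of these markers in the receptor values was not tested.

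Of 16 ligands of the same families, 14 entered the fit. Clcf1, a gp130 cytokine of the ciliary neurotrophic factor group, was 10.08 ± 0.24 in named Qk-KO and 9.85 ± 0.15 in named WT (SD, n = 4 each; limma, adjusted p = 0.662). Igf2, the relative of Igf1, was 7.05 ± 0.71 in named Qk-KO and 7.91 ± 0.43 in named WT (SD, n = 4 each). Its difference was -0.86 ± 0.35 (SE), with an unadjusted 95% interval of -1.66 to -0.06 (limma, adjusted p = 0.577). Vegfc, the lymphatic relative of Vegfa, differed by -0.61 ± 0.33 (SE; limma, adjusted p = 0.662). Among 12 other trophic ligands, Gdnf had no reads, and Grn and Spp1, which encode progranulin and osteopontin, were at 2218 and 1990 CPM and differed by -0.01 ± 0.06 and 0.17 ± 0.10 (SE; limma, adjusted p = 0.964 and 0.685). Hbegf and Nrg1, ligands of the epidermal growth factor receptor family, differed by -0.27 ± 0.21 and -0.30 ± 0.15 (SE; limma, adjusted p = 0.735 and 0.645), Nrg1 at 0.0702 CPM.

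Proteins that bind or activate the factors had the most negative median of the 6 lists, -0.22. Of their 15 differences 14 were below 0, beside 11549 of all 22546 genes tested. The urokinase gene Plau and St14, which encodes matriptase, differed by -0.22 ± 0.11 and -0.09 ± 0.05 (SE; limma, adjusted p = 0.658 for each). Igfbp2 and Igfbp7 encode proteins that bind insulin-like growth factors. Igfbp2 was 7.60 ± 0.80 in named Qk-KO and 8.64 ± 0.39 in named WT (SD, n = 4 each), a difference of -1.04 ± 0.38 (SE; unadjusted 95% interval -1.91 to -0.18; limma, adjusted p = 0.531). Igfbp7 differed by -0.71 ± 0.38 (SE; limma, adjusted p = 0.662). Median differences over the astrocyte, endothelial, and mural and fibroblast marker genes were -0.87, -0.57 and -0.52. Those over the neuron, oligodendrocyte precursor and oligodendrocyte markers were -0.44, -0.35 and -0.25. Immune lists were at -0.32 for neutrophil, -0.19 for monocyte and -0.14 for border-associated macrophage markers. T and NK cell markers were at -0.04 and B cell markers at 0.03. The part of these markers in this list was not tested.

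Intracellular signalling genes lay close to 0, with a median difference of 0.03 over 18 genes. Socs3, the feedback inhibitor of gp130 signalling, was 15.35 ± 0.61 in named Qk-KO and 15.27 ± 0.34 in named WT (SD, n = 4 each; limma, adjusted p = 0.959), and Pik3cd, a catalytic subunit of phosphoinositide 3-kinase, differed by -0.06 ± 0.06 (SE; limma, adjusted p = 0.800). The insulin receptor substrates Irs1 and Irs2, which relay signals of the IGF-1 receptor, differed in opposite directions, by -0.50 ± 0.40 and 0.31 ± 0.18 (SE; limma, adjusted p = 0.746 and 0.683). The hypoxia response, which is known to induce Vegfa, had a median difference of 0.07 over 10 genes. Hif1a and Ldha differed by 0.13 ± 0.10 and 0.11 ± 0.07, and Epas1 and Adm by -0.78 ± 0.41 and 0.42 ± 0.45 (SE; limma, adjusted p = 0.735, 0.687, 0.662 and 0.815). Adm was lowest in both libraries numbered 4, as Vegfa was, at 5.35 in named Qk-KO 4 and 4.75 in named WT 4. Ldha had that order too, at 13.74 in named Qk-KO 4 and 13.65 in named WT 4. Epas1 and Hif1a did not. Epas1 was highest in named Qk-KO 4, at 11.15, and at 10.76 in named WT 4. Hif1a was 14.50 in named WT 4 and 14.49 in named WT 3. A link to Vegfa was not tested.

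The libraries carried the markers of microglia their label names. The summed level of 9 microglial genes, among them Csf1r, Tmem119 and C1qa, was 12182 to 13720.3 CPM in named Qk-KO and 14792 to 16558 CPM in named WT, without overlap. The sum leans on Csf1r, whose mean signal was 333842 depth-scaled reads, and the median difference of the 9 was -0.08. The authors' deposited log2 fold change was -0.28 for Csf1r and -0.70 for Cx3cr1, but -0.05 for Tmem119 and -0.02 for C1qa. The authors' deposited table called 3 of the 9 lower in named Qk-KO, Csf1r, Cx3cr1 and Sall1, beside 1.22% of all genes called in either direction. Limma by name called 0 of the same 9, with 4 at an unadjusted p under 0.05. Rough totals of reads assigned to genes were 43.9 to 58.5 M in named Qk-KO and 59.7 to 69.7 M in named WT, also without overlap, so depth and name cannot be told apart. The first principal component over genes of at least 1 CPM held 42.1% of the variance and placed named Qk-KO 4 (0.53) and named WT 4 (0.49) at one end and named Qk-KO 3 (-0.53) at the other.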

How the data were processed

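Per the submitters' processing notes, the tools were FastQC, HISAT2, StringTie and DESeq2 and the genome build was mm10, with no versions. The authors' table, as deposited, has 1 log2 value per gene and library, taken here to be regularized log2 values because low genes are drawn towards their mean. Its mean signal over libraries, also deposited, was divided by 56.8 to give CPM. Marker sums of single libraries used the log2 values, turned back to the linear scale and divided by the same number. Their deposited log2 fold change, standard error, test statistic (a score), p-value and adjusted p-value were used as given. Library counts were not used here, so no count test was run.

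Of the genes with reads, 22546 reached a normalized value of 1 in 4 libraries or more and were fitted with limma 3.58.1 in R 4.3.3 (intensity trend, robust), tested on simulated data. Lengths and coordinates came from GENCODE M21 (GRCm38), joined on unversioned gene IDs. Rough depth came from genes seen in 1 library, whose signal steps in whole reads (within 1%). The members and lists were chosen with earlier results of these data known, and 2 genes of the lists are not reported here. All members were named and, from each list, called genes, the 2 with the highest signal and the 2 with the largest difference. Alternatives were the genotype field as grouping or covariate, a replicate block, leaving out libraries, other filters, 2 scalings and a plainer variance model.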

Additional observations from a re-analysis of the deposited data

Results flagged for a closer look

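In 7 of 68 groups of 4 libraries checked for the members and the other named genes, 1 library lay far from the other 3 (Dixon's test at the 95% level); chance gives about 1 in 20 groups. Named WT 4 was lowest for Pdgfb, at 13.55 against 13.91 in the nearest library, for Vegfa, at 9.94 against 11.99, and for Osm, at 13.46 against 14.13. Named Qk-KO 4 was highest for Bdnf, at 2.78 against 1.70, and for Epas1, at 11.15 against 9.64, and lowest for Adm, at 5.35 against 6.55. Named WT 2 was lowest for Il6st, at 13.93 against 14.25.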

How the results depend on the processing

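No member passed the threshold under any alternative: of 168 recomputed differences 158 kept their sign and 10 reversed, and the smallest adjusted p in limma was 0.144. By the genotype field the difference was -0.30 for Igf1, -0.16 for Vegfa, -0.14 for Osm, -0.063 for Lif and 0.15 for Inhba. Median centring gave 0.029 for Vegfb. Without both libraries numbered 4, a setting chosen after seeing the data, Hgf was at 0.026. Leaving out 1 library gave -0.00090 to 0.42 for Lif, turned by named WT 4, -0.20 to 0.067 for Pdgfb and -0.21 to 0.014 for Hgf, both turned by named Qk-KO 4. Over all genes limma called 0 to 7 with 1 library left out (7 without named Qk-KO 4, 3 without named WT 2 or named Qk-KO 2, 2 without named Qk-KO 1, 0 without named Qk-KO 3), 0 by the genotype field, 0 among genes of at least 1 CPM and 4 without both libraries numbered 4, against 1 as reported; the cause was not tested. The shared numbers do not pair the libraries by the labels: the deviations of same-numbered libraries correlated across 13463 genes at 0.05, 0.15, 0.27 and 0.46 for numbers 1 to 4, and 6 of 8 libraries correlated best with their own number, a hint from the data. With the replicate block limma called 1 gene and 0 members, with differences of 0.88 ± 0.22 for Vegfa (SE; adjusted p = 0.276) and 0.22 ± 0.07 for Osm (SE; adjusted p = 0.266). Inhba and Bdnf, on few reads, gave no value in the fit of genes of at least 1 CPM.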
